A study of Mus musculus with 38 samples.

Results

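The 10 genes described here encode the MHC class I antigen presentation pathway and its immunoproteasome: the class I heavy chains H2-K1 and H2-D1, their shared light chain B2m, the peptide transporter subunits Tap1 and Tap2, the loading chaperone Tapbp (tapasin), the inducible proteasome subunits Psmb8, Psmb9 and Psmb10, and Nlrc5, the transactivator of class I genes. They were taken by gene name from the 46078 gene identifiers in the deposited count files, and each of the 10 names matched 1 identifier. In this pathway the proteasome cuts cytosolic proteins into peptides, the TAP transporter carries the peptides into the endoplasmic reticulum, and tapasin helps load them onto a heavy chain paired with beta-2 microglobulin for display at the cell surface to CD8 T cells. Interferon gamma is known to raise most of these genes and to exchange 3 constitutive catalytic subunits of the proteasome, encoded by Psmb5, Psmb6 and Psmb7, for those encoded by Psmb8, Psmb9 and Psmb10 respectively. Intestinal epithelial cells carry class I molecules at rest and raise them in inflammation.

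RNA was sequenced from 38 libraries of mouse intestinal epithelial cells of the C57BL/6 strain, before and during colitis caused by dextran sodium sulfate (DSS) in the drinking water. The sample labels name isolated epithelial cells, whereas the series text names colon tissue. Knockout (KO) mice carried floxed Hk2, the gene of hexokinase 2, with Cre recombinase driven by the Villin promoter, which is active in intestinal epithelium (Hk2dIEC). Wild-type (WT) mice were littermates with floxed Hk2 alleles and no deletion, so both genotypes carried the floxed allele. DSS at 1.5% was given to male mice of 10 to 12 weeks, with both genotypes housed together. The untreated mice formed day 0, for which the labels do not say whether the animals were of the young (9 to 11 weeks) or old (86 to 92 weeks) age given for basal phenotyping. The groups held 4 WT and 5 KO libraries on day 0, 7 WT and 8 KO libraries on day 3 of DSS, and 7 WT and 7 KO libraries on day 7. Libraries are named here by their title, which gives the day, the genotype and a number. The labels do not state that every number is a separate animal, and if they are not, p-values measure only the spread between these libraries.

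Total counts ran from 10.5 M to 60.6 M per library with a median of 43.2 M, and levels are given as CPM, counts relative to library size after TMM scaling over all libraries. The targeted gene Hk2 lay between 247 and 439 CPM in WT and between 31.2 and 111 CPM in KO on day 0, and between 231 and 598 CPM in WT and 56.6 and 260.5 CPM in KO on day 7. On day 3 Hk2 was 99.3 to 224 CPM in WT and 70.9 to 131 CPM in 7 KO libraries, but 440 CPM in the library labelled d3_KO_345, which goes against its label. That level is also above every WT library of day 3. Its summed neutrophil markers were 34.5 CPM, against a KO median of 0.677 CPM and at most 1.05 CPM in WT on that day. The reason was not tested. Markers of epithelium summed to between 8272 and 18460.2 CPM in every library, and the colon markers Car1, Aqp8 and Slc26a3 summed to between 2784 and 12459.6 CPM against 151 to 1212 CPM for the small intestine markers. Day 0 libraries carry another library prefix in the deposited names than those of days 3 and 7. Mitochondrial ribosomal RNA took 45.6% of the counts in d0_KO_32 and 6.25% to 13.8% in the other day 0 libraries, against 0.352% to 3.95% later. A change from day 0 to a later day therefore cannot be told apart from the library series. Library d0_KO_32 was the lowest of its group for H2-K1, H2-D1 and Tapbp and the highest for Psmb10. For the 10 genes, libraries d0_WT_41 and d3_WT_381 stood apart: the first was the highest of its group for 10 of the 10 genes and the second for 9 of 10.

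In the coordinates of the count files, 7 of the genes lie in the MHC on chromosome 17: Tapbp (33915899 to 33929288), H2-K1 (33996017 to 34000333), Psmb9 (34181988 to 34187764), Tap1 (34187553 to 34197225), Psmb8 (34197721 to 34201454), Tap2 (34203527 to 34216321) and H2-D1 (35262730 to 35267499). B2m lies on chromosome 2 (122147686 to 122153083), and Nlrc5 (94472763 to 94527272) and Psmb10 (105935728 to 105938392) lie on chromosome 8. RefSeq promoter windows (GRCm38.p6, 250 bases before to 50 bases after the start of transcription) were at hand for 8 of the 10, all but Tap2 and Nlrc5. 4 stretches are shown because class I promoters are known for elements that answer to interferon and NF-kappaB. Whether these elements bear on the levels that follow was not tested. Capitals mark matches to motifs searched on both strands: GGGATTCCC (the class I kappaB site), AAGTGAAA (the interferon consensus half-site, printed here as its reverse complement), GAAA, any 2 bases and GAAA (an interferon-stimulated response element core), TTCNNNGAA (a gamma-activated site) and TGACG (the core of site alpha, part of the module through which NLRC5 acts with RFX and CREB factors).
H2-K1, chr17:34000384-34000457, minus strand, 110 to 37 bases before the start: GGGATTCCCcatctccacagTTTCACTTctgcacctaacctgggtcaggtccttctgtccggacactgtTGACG
H2-D1, chr17:35262924-35262951, plus strand, 170 to 143 bases before the start: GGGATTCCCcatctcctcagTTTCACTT
B2m, chr2:122147542-122147627, plus strand, 145 to 60 bases before the start: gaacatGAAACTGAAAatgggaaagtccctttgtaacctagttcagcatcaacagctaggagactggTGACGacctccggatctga
Psmb8, chr17:34198088-34198117, plus strand, 107 to 78 bases before the start: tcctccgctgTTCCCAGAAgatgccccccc

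The H2-K1 and H2-D1 stretches share 27 of their first 28 bases, and the 1 difference is A17T, counted from 1 at the 5′ end of the H2-K1 stretch. The promoter windows of both genes hold the kappaB site, the interferon half-site and TGACG in the same order and at the same spacing. TGACG of H2-D1 starts 101 bases before its start site, outside the stretch shown. B2m holds the longer interferon element and TGACG, and Psmb8 holds a gamma-activated site. Tap1 and Psmb9 are transcribed away from each other from start sites 226 bases apart, and 1 TGACG between them lies in both windows. TGACG was found in 5 of the 8 windows (B2m, H2-K1, Psmb9, Tap1, H2-D1) against 20.8% of all 32851 windows, the kappaB site in 2 against 0.353%, the interferon half-site in 2 against 1.6%, the longer interferon element in 1 against 3.44% and the gamma-activated site in 1 against 8.3%. CCAAT, the core of the Y box, was in 6 of the 8 windows against 37.4% of all. The H2-D1 and Psmb8 stretches lie in an exon of a longer annotated transcript of the gene, and a match to these letters is a description of the window only. Because the motifs were searched as known elements of class I promoters, these counts are no test of enrichment.

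Several of these genes share sequence or exons with others, which limits what a count can show. Of the 50-base windows of their annotated transcripts, 9.63% for H2-K1 and 12.8% for H2-D1 occur in transcripts of another gene, foremost H2-Q10 and H2-D1 for H2-K1, and H2-Q1 and H2-K1 for H2-D1, so those 2 counts are uncertain where reads could fit both. Strand was ignored in counting, and exon bases shared with a neighbour made up 22% of Tapbp, 18.5% of Tap2, 6.8% of Psmb8, 5.79% of Psmb9 and 3.87% of Tap1. B2m and Psmb10 shared no window and no exon base.

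Per kilobase of exon, the order of the 10 genes was nearly the same in every group. B2m was highest by mean, at 282 ± 115.5 CPM per kb (SD, n = 4) in untreated WT and 735 ± 157 CPM per kb (SD, n = 7) in KO on day 7. The heavy chains H2-K1 and H2-D1 followed, at 238 ± 55.5 and 208 ± 41.7 CPM per kb in untreated WT, within 1 SD of each other and of B2m. On day 7 B2m stood clear of both heavy chains by more than the SDs in both genotypes. In KO on that day H2-D1 was 368.1 ± 65.5 CPM per kb and H2-K1 306 ± 44.8 CPM per kb (n = 7). B2m was already clear of both in KO on day 3, whereas in WT on day 3 the SDs overlapped. Psmb10 came next in each of the 6 groups, between 59.2 CPM per kb (KO day 0) and 123 CPM per kb (KO day 7), and Tapbp lay between 42.3 and 57.3 CPM per kb. Psmb8, Tap1, Tap2 and Psmb9 formed a low tier, from 3.06 CPM per kb (Psmb9, KO day 0) to 29.5 CPM per kb (Psmb8, KO day 7), in which most neighbours overlapped within their SDs. Nlrc5, whose protein drives the class I promoters, was the lowest in every group, at 0.4 ± 0.11 CPM per kb (n = 5) in untreated KO and 2.9 ± 1.05 CPM per kb (n = 7) in KO on day 7.

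**Figure D1:**
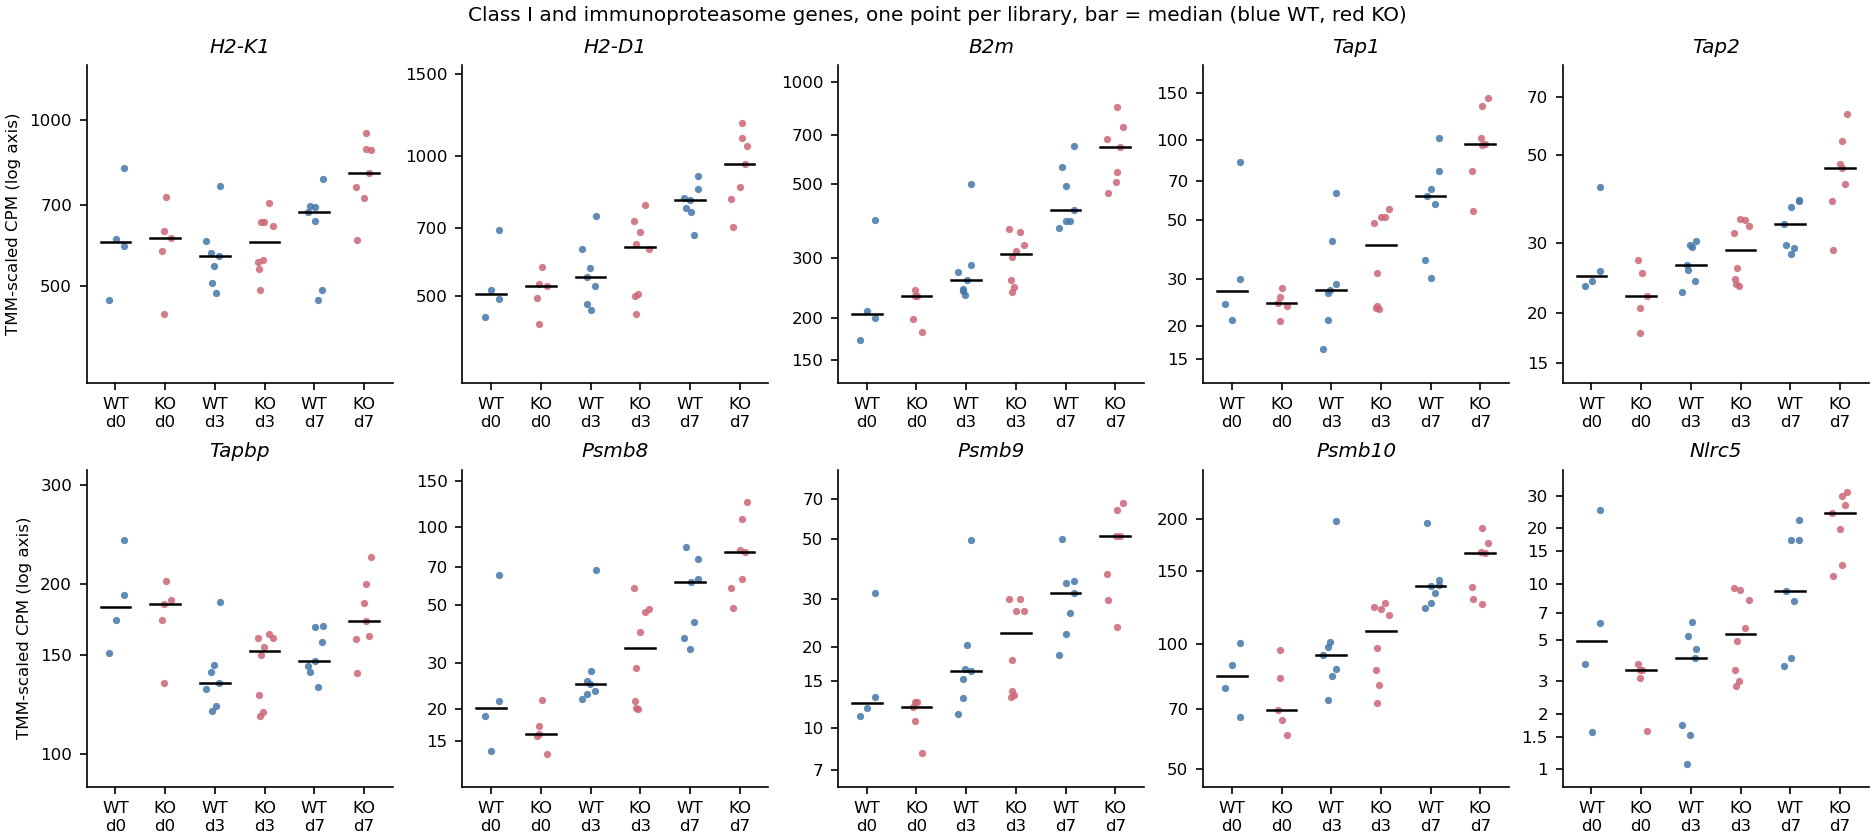
TMM-scaled CPM (log axis) of the 10 genes, 1 panel per gene and 1 point per library, in WT (blue) and KO (red) on days 0, 3 and 7, with black bars for group medians. KO day 7 has the highest median for 9 of the 10 genes, the exception being Tapbp, and single high points mark libraries d0_WT_41 and d3_WT_381.

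Day 7 against day 3 of DSS asks how the pathway moved as colitis developed, and within the DSS libraries it was the comparison in which most of the 10 genes were called. In KO, 9 of the 10 genes rose by the edgeR quasi-likelihood test at an adjusted p under 0.05, where 10.5% of the 15568 genes tested rose and 8.83% fell. In WT, 6 of 10 rose, where 10.6% of 15541 genes rose and 8.7% fell. None of the 10 fell in either genotype. The median log2 fold change of the 10 was 0.87 in KO and 0.57 in WT, beside -0.01 and 0.01 over all genes tested.

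Among the heavy chains and their light chain, B2m changed most. B2m in KO ran from 238 to 368.1 CPM on day 3 (median 309) and from 469 to 846 CPM on day 7 (median 644), so that no day 3 library reached the lowest day 7 library. The rise in KO was 1.07 on the log2 scale (SE 0.13, adjusted p = 6.59e-05 by edgeR's quasi-likelihood test), a fold of 2.09. In WT, B2m ran from 234 to 499 CPM on day 3 (median 259) and from 370 to 649 CPM on day 7 (median 418). Library d3_WT_381 alone lay inside the day 7 range, and the WT rise was 0.69 (SE 0.19, adjusted p = 0.016). H2-D1 rose by 0.63 (SE 0.13, adjusted p = 0.00334) in KO, from a median of 637 to 961 CPM, and by 0.51 (SE 0.11, adjusted p = 0.00584) in WT, from 548 to 803 CPM. H2-K1 moved less: the log2 change was 0.42 in KO (SE 0.10, adjusted p = 0.00817), from a median of 599 to 801 CPM, and 0.17 in WT (SE 0.14, adjusted p = 0.439), where the medians were 566 and 681 CPM and the groups overlapped over most of their range. 2 of the 10 genes in KO, B2m and Nlrc5, had all day 7 libraries above all day 3 libraries, as did 2.6% of all genes tested, and none of the 10 did so in WT, where 2.7% of genes did.

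The transporter subunits moved more than tapasin. Tap1 in KO had 23 to 55.2 CPM on day 3 (median 40.2) and 53.8 to 144 CPM on day 7 (median 96.7), and the groups touched only at their ends. It rose by 1.38 (SE 0.25, adjusted p = 0.000874) in KO and by 0.95 (SE 0.30, adjusted p = 0.0392) in WT, where the medians went from 27.2 to 61.6 CPM. Tap2, which forms the transporter with Tap1, rose by 0.67 (SE 0.15, adjusted p = 0.0038) in KO and 0.33 (SE 0.10, adjusted p = 0.0307) in WT, with medians between 26.4 and 46.5 CPM. Tapbp did not pass the test in either genotype, with log2 changes of 0.30 (adjusted p = 0.0535) in KO and 0.13 (adjusted p = 0.429) in WT. Tapbp medians lay between 134 and 172 CPM on the DSS days, and without the library labelled d3_KO_345 the KO change was 0.33 and passed (adjusted p = 0.0434).

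The 3 inducible subunits of the proteasome rose in KO, and 1 of them in WT. Psmb8, which replaces the chymotrypsin-like constitutive subunit, had 20 to 58.3 CPM on day 3 (median 34.1) and 48.6 to 125 CPM on day 7 (median 80.1) in KO. It rose by 1.19 (SE 0.27, adjusted p = 0.00444) in KO and by 0.91 (SE 0.28, adjusted p = 0.0334) in WT, where the medians were 24.9 and 61.7 CPM. Psmb9 rose by 1.11 (SE 0.26, adjusted p = 0.00552) in KO, from a median of 22.4 to 51.1 CPM, and its WT change of 0.64 did not pass (SE 0.31, adjusted p = 0.171). Psmb10 rose by 0.60 (SE 0.13, adjusted p = 0.00435) in KO, from 108 to 166 CPM, and its WT change of 0.45 did not pass (SE 0.19, adjusted p = 0.119). Library d3_WT_381 held 68.4 CPM of Psmb8, 49.8 CPM of Psmb9 and 198 CPM of Psmb10, each far above the other 6 WT libraries of that day. Without it, 8 of 10 genes rose in WT, Psmb9 by 1.02 (adjusted p = 0.00251) and Psmb10 by 0.67 (adjusted p = 0.000622).

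Nlrc5 had the largest log2 change of the 10 in both genotypes. In KO it ran from 2.8 to 9.48 CPM on day 3 (median 5.35) and from 11 to 31.2 CPM on day 7 (median 24.2), with no overlap. In WT it ran from 1.07 to 6.25 CPM on day 3 (median 3.97) and from 3.63 to 22.1 CPM on day 7 (median 9.14), and 2 of the 7 day 7 libraries lay within the day 3 range. The rise was 1.92 (SE 0.31, adjusted p = 0.000409) in KO, a fold of 3.79, and 1.77 (SE 0.47, adjusted p = 0.0153) in WT, a fold of 3.41. The deposited counts for Nlrc5 were as low as 27 in 1 library, so its values are less precise than those of B2m, which never fell under 2099 counts.

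**Figure D2:**
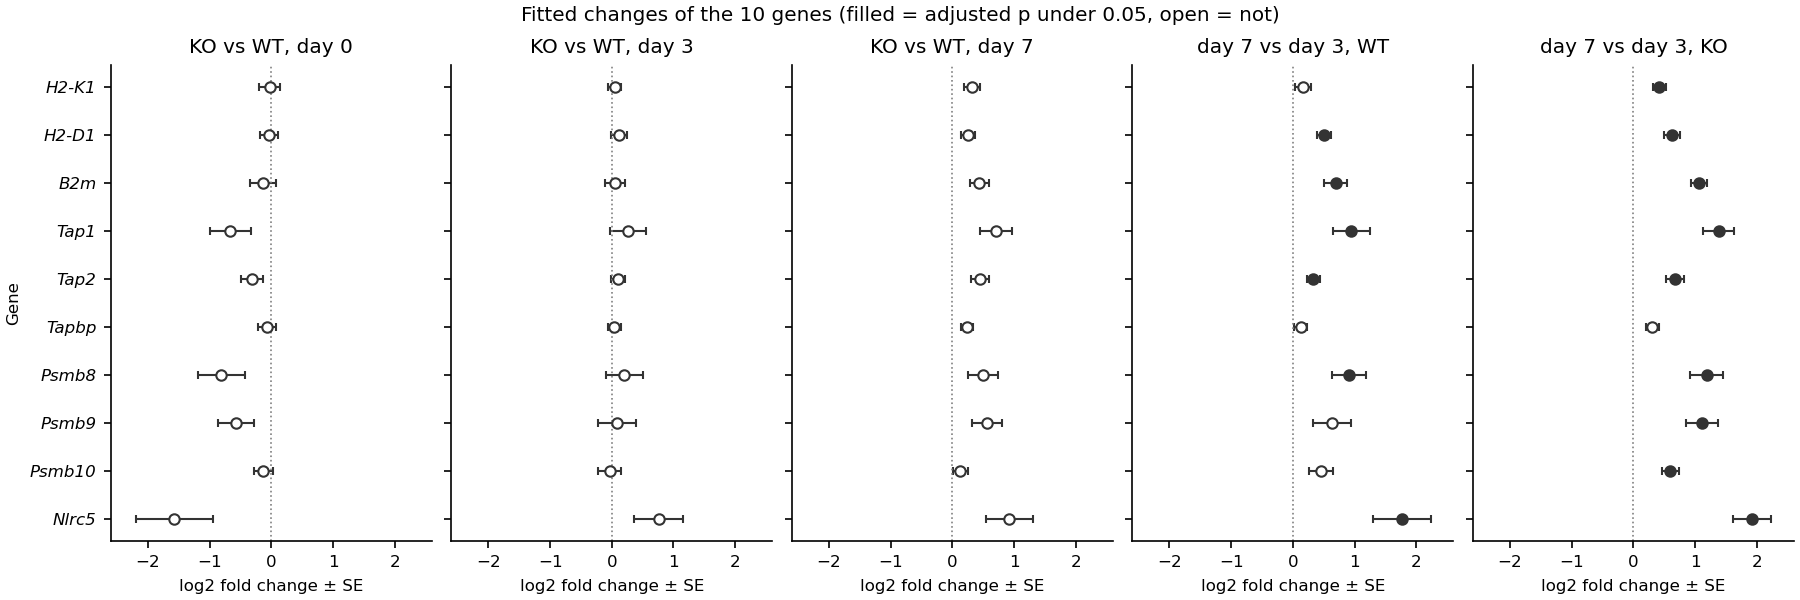
Log2 fold change with its standard error (horizontal bars) for each of the 10 genes in 5 comparisons, with filled points at an adjusted p under 0.05. No gene is filled in the 3 panels of KO against WT, 6 are filled for day 7 against day 3 in WT and 9 in KO.

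These calls differed in how firmly they held. In KO, the 9 called genes kept their call in all 15 fits that left out 1 library, the library labelled d3_KO_345 included. In WT, H2-D1, B2m and Nlrc5 kept theirs in all 14 such fits, whereas Tap1 kept it in 4, Psmb8 in 5 and Tap2 in 7. The count in WT was 3 of 10 without d3_WT_346, d3_WT_348, d3_WT_353, d3_WT_486, d7_WT_356 or d7_WT_419.

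Whether the rise differed between genotypes was tested as an interaction. The interaction term was above 0 for all 10 genes, with a median of 0.29 (beside -0.01 over all genes) and a range from 0.14 (H2-D1) to 0.50 (Psmb9). None of the 10 passed by edgeR's quasi-likelihood test (adjusted p = 1 for each), none was under an unadjusted p of 0.05, and 0 of the 16371 genes tested passed, with 2.69% of genes under an unadjusted p of 0.05. DESeq2 also called none. Without d3_WT_381 the median was 0.10 and 8 of the 10 terms were above 0. The 6 and 9 genes called within each genotype therefore do not show that the genotypes differed.

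The direct comparison of KO with WT, which asks what loss of epithelial hexokinase 2 does to the pathway, called none of the 10 genes on any day by edgeR's quasi-likelihood test or by DESeq2. By the same edgeR test Hk2 itself was called lower in KO on day 0 (log2 -2.20, adjusted p = 0.0331), but not on day 3 (-0.27, adjusted p = 0.802), on day 7 (-1.25, adjusted p = 0.291) or over both DSS days (-0.75, adjusted p = 0.113). The day 3 and pooled Hk2 values include d3_KO_345, whose 440 CPM lay above every WT library of that day. All other KO libraries of day 3 had 70.9 to 131 CPM, against 99.3 to 224 CPM in WT. On day 7 all 10 log2 fold changes were above 0, against 49.1% of the 15584 genes tested, with a median of 0.44. Nlrc5 was 24.2 CPM by median in KO and 9.14 CPM in WT, a log2 difference of 0.93 (SE 0.39, adjusted p = 0.354). Tap1 stood at medians of 96.7 and 61.6 CPM, with a difference of 0.71 (SE 0.26, adjusted p = 0.322). Tap2 had the lowest adjusted p of the 10, at 0.291, for a difference of 0.45 (SE 0.14), with 28.9 to 63.3 CPM in KO and 28.1 to 38.5 CPM in WT. B2m differed by 0.44 (SE 0.16, adjusted p = 0.32), with KO from 469 to 846 CPM and WT from 370 to 649 CPM. For each of the 10 genes the KO and WT ranges overlapped, while 0.173% of all genes had every KO library above every WT library. 8 of the 10, all but Psmb8 and Psmb10, were under an unadjusted p of 0.05, where 12.9% of all genes were so and 6.04% were so with higher levels in KO, and 0.00642% of genes (1 of 15584) passed after adjustment.

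On day 3 the median log2 difference over the 10 genes was 0.09, with 9 of 10 above 0 (48.9% of all genes) and none under an unadjusted p of 0.05, where 7.88% of the 15461 genes tested were and 0.00647% passed after adjustment. Nlrc5 again had the largest value, 0.76 (SE 0.39, adjusted p = 0.623), from medians of 5.35 CPM in KO and 3.97 CPM in WT. These values moved with library d3_WT_381: without it the median was 0.21, all 10 were above 0 and none passed (lowest adjusted p = 0.646 by edgeR's quasi-likelihood test), with Psmb9 at 0.47, B2m at 0.23 and Psmb10 at 0.19. Without d3_KO_345, the library that goes against its label, the median was 0.07, 8 of 10 were above 0 and none passed. Over both DSS days in a model with day as a term, the median was 0.25 (0.24 without d3_KO_345) and all 10 were above 0 (48.8% of all genes). The lowest adjusted p was 0.115 for Nlrc5, at 0.84 (SE 0.28), and 3 of 10 were under an unadjusted p of 0.05, where 21.5% of 16371 genes were and 0.0122% passed after adjustment. The day 3 and day 7 values share libraries with this pooled value and do not add to it.

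On day 0 the values ran the other way, and their size rested on 1 library. All 10 log2 fold changes of KO against WT were below 0, against 50.6% of the 14944 genes tested, with a median of -0.22. None passed, as 0.0335% of genes did, and Nlrc5 alone was under an unadjusted p of 0.05, as were 10.5% of genes. For none of the 10 did all KO libraries lie above all WT libraries, as they did for 1.27% of genes, or all below them, as they did for 2.41%. Nlrc5 was 1.59, 3.71, 6.14 and 25.1 CPM in libraries d0_WT_31, d0_WT_43, d0_WT_46 and d0_WT_41, and 3.7, 3.43, 1.6, 3.11 and 3.44 CPM in the 5 KO libraries. Psmb8 was 13.7, 18.7, 21.4 and 65.1 CPM in the same WT libraries and 13.3 to 21.6 CPM in KO. Tap1 was 20.9, 24.1, 29.8 and 82.5 CPM in WT and 20.7 to 27.6 CPM in KO. In each of these genes 3 WT libraries lay in or near the KO range and d0_WT_41 alone lay far above it. The log2 differences were -1.57 for Nlrc5 (SE 0.63, adjusted p = 0.424), -0.81 for Psmb8 and -0.66 for Tap1 with d0_WT_41, and -0.33, -0.08 and 0.00 without it, when the median over the 10 was -0.01 and 4 of 10 were above 0.

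The contrast between day 0 and day 7 in the genotype difference was tested as a further interaction, chosen after the data were seen. Its 10 terms were above 0 with a median of 0.69, 6 of 10 were under an unadjusted p of 0.05 where 13.5% of the 18830 genes tested were, and none passed (lowest adjusted p = 0.191, for Nlrc5 at 2.52), as 0.00531% of genes did. Without d0_WT_41 the median was 0.39 and the lowest adjusted p was 0.492.

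The balance of inducible and constitutive subunit transcripts was measured as a ratio within each library, which no scaling between libraries touches. Counts per kb of Psmb8 over Psmb5, Psmb9 over Psmb6 and Psmb10 over Psmb7 were compared by exact two-sided permutation tests, with adjustment over the 15 tests made. In KO, Psmb8 over Psmb5 ran from 0.158 to 0.36 on day 3 (median 0.242) and from 0.323 to 0.855 on day 7 (median 0.495). Only the ends of the 2 ranges overlapped, and the mean log2 ratio was 1.18 higher on day 7 (exact p = 0.000932, adjusted p = 0.014, n = 8 and 7). Psmb9 over Psmb6 in KO went from a median of 0.134 to 0.288, with a mean log2 difference of 1.06 (exact p = 0.00342, adjusted p = 0.0171). Psmb10 over Psmb7 in KO went from 1.2 to 1.73, a difference of 0.46 (exact p = 0.00295, adjusted p = 0.0171). In WT, Psmb8 over Psmb5 rose by 0.82 (exact p = 0.0111, adjusted p = 0.0415, n = 7 and 7), from a median of 0.18 to 0.319. The other 2 WT differences were 0.50 and 0.21 (adjusted p = 0.126 for each in the exact test).

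Between genotypes on day 7, the ratios were higher in KO by 0.65 for Psmb8 over Psmb5 (exact p = 0.053, adjusted p = 0.0994), by 0.86 for Psmb9 over Psmb6 (exact p = 0.021, adjusted p = 0.0524) and by 0.30 for Psmb10 over Psmb7 (exact p = 0.0192, adjusted p = 0.0524), with n = 7 and 7. None of the 3 passed after adjustment, and the KO and WT ranges overlapped for each. Both parts of each ratio entered these differences. The fitted KO against WT values on day 7 were 0.50, 0.56 and 0.13 for Psmb8, Psmb9 and Psmb10. For Psmb5, Psmb6 and Psmb7 they were -0.19, -0.35 and -0.18. Without d7_WT_419, or without d3_WT_381, which enters only the other tests of the family, the count of ratio tests that passed was 7 in place of 4. With d3_WT_381 left out, the adjusted p of the Psmb9 and Psmb10 ratios on day 7 was 0.045 each in the exact test. The smallest p these tests allow is 0.000583 for 7 against 7 libraries. On day 0 the differences of KO against WT were -0.59, -0.63 and -0.27, with adjusted p of 0.357, 0.106 and 0.0994 in the exact test of 5 against 4 libraries, and -0.07, -0.26 and -0.16 without d0_WT_41. On day 3 they were 0.30, 0.31 and 0.05.

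**Figure D3:**
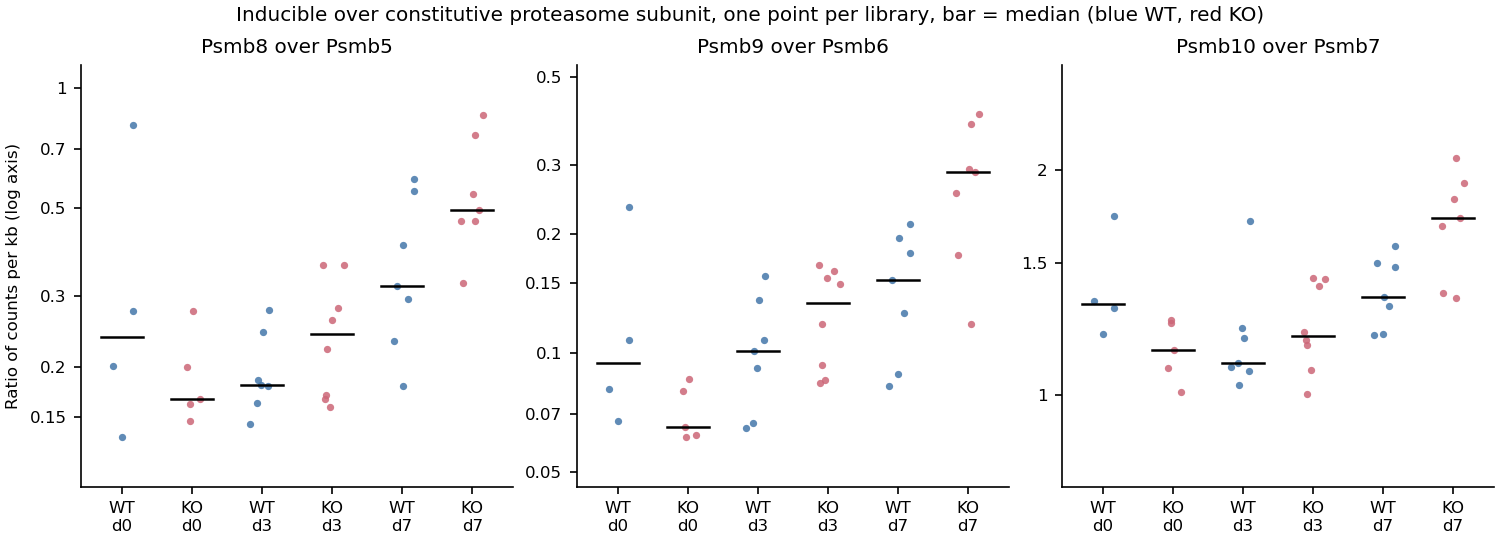
Ratio of counts per kb (log axis) of each inducible proteasome subunit over its constitutive counterpart, 1 point per library in WT (blue) and KO (red) by day, with bars for medians. The KO day 7 medians are 0.495, 0.288 and 1.73 from left to right, the highest of the 6 groups in each panel, and the ranges overlap those of WT day 7.

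The constitutive subunits themselves did not pass the test in either genotype from day 3 to day 7. Psmb5, Psmb6 and Psmb7 had log2 changes of 0.05, 0.05 and 0.15 in KO (adjusted p from 0.175 to 0.709) and of 0.14, 0.23 and 0.30 in WT (adjusted p from 0.0954 to 0.686). In KO against WT on day 7 they were -0.19, -0.35 and -0.18, none called. All other 20S core subunits listed were also below 0 in that comparison, from -0.17 (Psma1) to -0.34 (Psma6), none called. From day 3 to day 7, of these 11 other subunits, 3 were called higher in KO and none in WT. Psma5 was at 0.24 (adjusted p = 0.00714) and Psma4 at 0.22 (adjusted p = 0.0349) in KO. Their WT changes were larger but less precise, at 0.35 (SE 0.20) and 0.37 (SE 0.16). Neither passed edgeR's quasi-likelihood test in WT (adjusted p = 0.243 and 0.121). The interaction terms of these 2 genes were below 0, at -0.08 and -0.13, so the calls do not show a larger rise in KO. The proteasome activator subunit Psme1, whose product opens the core and is itself interferon-responsive, rose in both genotypes, by 0.53 (SE 0.09, adjusted p = 0.000821) in KO and 0.52 (SE 0.16, adjusted p = 0.0359) in WT. Its partner Psme2 rose by 0.42 (adjusted p = 0.0131) in KO, and its WT change of 0.38 did not pass the same test (SE 0.22, adjusted p = 0.264). Of the 5 activator and assembly genes, 3 were called higher in KO and 1 in WT. The test of the difference between genotypes called none of these genes.

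The rest of the class I pathway moved in part. Of 5 peptide editing and loading genes, 2 rose in each genotype: Erap1, the aminopeptidase that trims peptides, by 0.35 in KO (adjusted p = 0.00621) and 0.26 in WT (adjusted p = 0.0431), and Tapbpl, a tapasin-related peptide editor, by 0.53 (adjusted p = 0.0221) and 0.42 (adjusted p = 0.0303). The general chaperones Calr, Canx and Pdia3 were not called. Of 17 other class I and class I-like genes, 10 rose and 2 fell in KO, and 3 rose and 1 fell in WT. H2-Q7 rose by 1.35 (SE 0.16, adjusted p = 4.61e-05) and H2-T3, the thymus leukaemia antigen that binds CD8 alpha, by 1.07 (SE 0.14, adjusted p = 9.55e-05) in KO. In WT, H2-T3 rose by 0.75 (adjusted p = 0.00859) and H2-Q4 by 0.58 (adjusted p = 0.00378). H2-Q10 fell in both, by 0.54 (adjusted p = 0.045) in KO and 0.71 (adjusted p = 0.021) in WT, and Hfe, an iron-regulating class I-like gene, fell by 0.38 (adjusted p = 0.035) in KO. Several H2-Q genes share stretches of sequence with other class I genes, and how their reads were split is uncertain.

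The class II pathway and interferon targets moved in the same days. All 7 class II genes rose in KO and 6 of 7 in WT, with H2-Ab1 up by 2.14 (adjusted p = 0.000188) in KO and H2-Eb1 by 1.98 (adjusted p = 0.0023) in WT. Of 19 interferon targets tested, 15 rose in KO and 7 in WT, with a median log2 change of 1.57 and 1.04. The guanylate-binding protein gene Gbp4 rose by 2.87 (adjusted p = 0.000251) in KO and 2.13 (adjusted p = 0.00766) in WT, and the ubiquitin-like modifier gene Ubd by 3.03 (adjusted p = 0.000277) in KO. Of 17 interferon signalling genes, 8 rose and 1 fell in KO (Irf2, by 0.28, adjusted p = 0.0193), and 4 rose in WT. Irf8 rose in both, by 0.81 (adjusted p = 1.32e-05) and 0.56 (adjusted p = 0.0133), Ifnar2, a type I interferon receptor chain, by 1.04 (adjusted p = 0.000459) in KO, and Jak2 by 0.37 (adjusted p = 0.0122) in WT. Irf1, an interferon-induced transcription factor of class I genes, rose by 0.51 (SE 0.14, adjusted p = 0.0152) in KO. In WT its change was 0.29 (adjusted p = 0.395). Ifng, the gene of interferon gamma itself, lay near the limit of detection, at 0.047 to 0.237 CPM on day 3 and 0.244 to 1.35 CPM on day 7 in KO, where it rose by 2.55 (SE 0.45, adjusted p = 0.000742). In WT it was 0.0537 to 0.592 CPM on day 7 and did not reach the level for testing. Of 10 genes for factors that bind class I promoters, Nfkb1 rose by 0.25 (adjusted p = 0.00406) in KO, and Rfxank, a subunit of the RFX complex, fell by 0.51 (adjusted p = 0.0011) in KO and 0.45 (adjusted p = 0.000769) in WT. Between genotypes on day 7 none of the 19 interferon targets tested was called. All 19 were above 0, against 49.1% of all genes, with a median of 1.05. Of them 15 were under an unadjusted p of 0.05, beside 12.9% of all genes and 6.04% with higher levels in KO. Several of these targets (Igtp, Irgm1 and Ido1) followed the mean of the 10 genes within groups (r = 0.90 to 0.93). The 19 are therefore not independent observations. Irf1 differed by 0.39 (adjusted p = 0.381) and Ifng by 1.5 (adjusted p = 0.325).

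**Figure D4:**
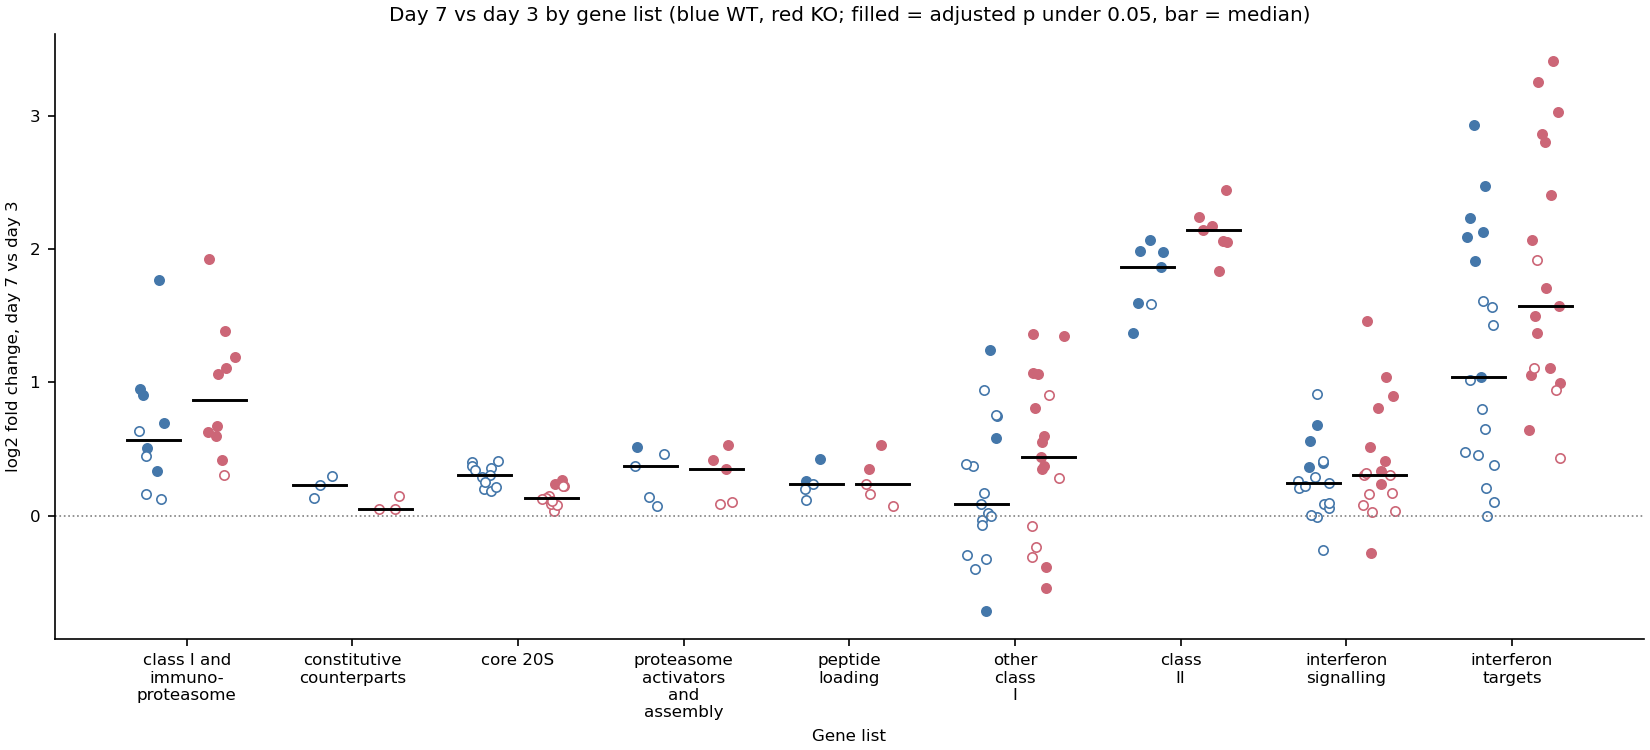
Log2 fold change of day 7 against day 3 for every tested gene of 9 lists in WT (blue) and KO (red), filled at an adjusted p under 0.05, with bars for list medians. The class II list has the highest medians, the 10 class I and immunoproteasome genes have medians of 0.57 and 0.87, and the 3 constitutive subunits have no filled point.

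Immune cell markers rose on the same days as the 10 genes, and in bulk RNA more cells of a type and more RNA per cell cannot be told apart. The 6 leukocyte markers were all detected in every group. Their summed level ran from 22.2 to 64 CPM in WT and 43.6 to 93.4 CPM in KO on day 3, and from 64.4 to 362 CPM in WT and 108 to 287 CPM in KO on day 7. The macrophage markers went from medians of 8.41 to 40.6 CPM in WT and 12.1 to 64.8 CPM in KO, the T cell markers from 30.7 to 59.1 CPM and 34.9 to 84.9 CPM, and the neutrophil markers from 0.498 to 147 CPM and 0.677 to 105 CPM. Of the 5 neutrophil markers, Retnlg was at or under 3 counts in every WT library of day 3. Epithelial markers had medians of 12128 to 14054 CPM over the same 4 groups. The mean log2 CPM of the leukocyte markers did not overlap between day 3 and day 7 in WT (1.15 to 2.96 and 3.3 to 5.66) or in KO (2.46 to 3.72 and 3.89 to 5.43), so the day and the leukocyte level cannot be told apart. With that mean as a covariate, none of the 10 genes was called from day 3 to day 7 in either genotype. The standard errors were larger in that fit: for B2m in KO the change was 0.67 (SE 0.31, adjusted p = 0.641), and for Nlrc5 in WT it was -0.17 (SE 0.54, adjusted p = 0.867). The KO against WT values on day 7 moved little with it, from a median of 0.44 to 0.39. The part of these cells in the rise was otherwise not tested.

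Within the groups, the 10 genes followed the leukocyte markers to different degrees. Over the 29 libraries of days 3 and 7, with group means removed, the correlation of log2 CPM with the leukocyte mean was r = 0.60 (rho = 0.64) for Nlrc5, r = 0.32 (rho = 0.26) for Tap1 and r = 0.31 (rho = 0.41) for B2m. For the other 7 genes r lay between -0.13 (Psmb10) and 0.21 (Psmb8), with 0.05 for H2-K1. Without the 2 libraries farthest from the median of the leukocyte mean, r for Nlrc5 was 0.52. These values are given as a description of 29 libraries that share 1 prefix in the deposited names.

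**Figure D5:**
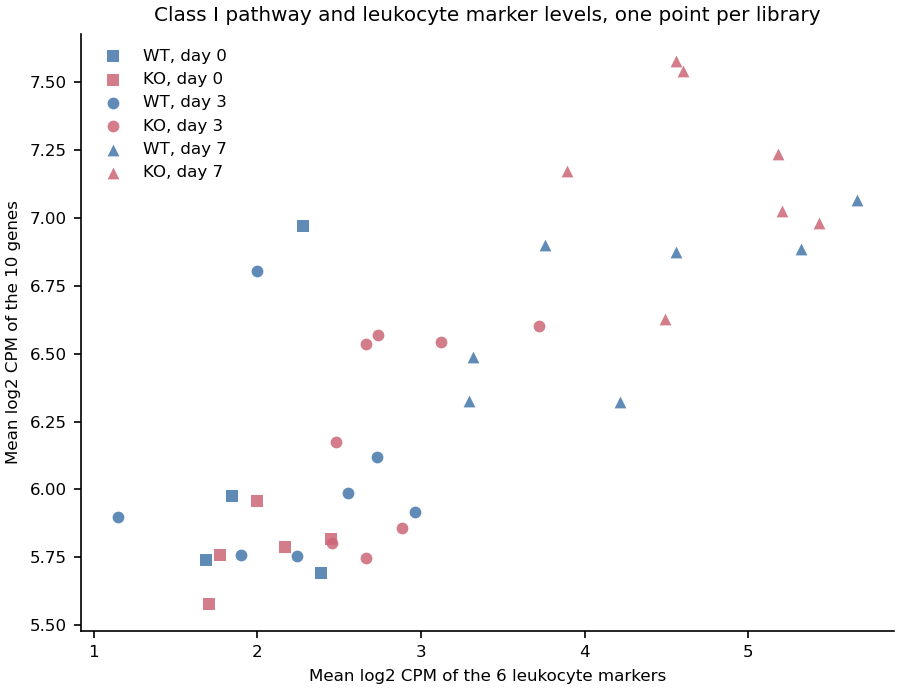
Mean log2 CPM of the 10 genes against mean log2 CPM of the 6 leukocyte markers, 1 point per library, with squares for day 0, circles for day 3 and triangles for day 7 (blue WT, red KO). Within each genotype, day 7 libraries lie to the right of and mostly above the others. Between genotypes, d3_KO_345 (leukocyte mean 3.72) lies to the right of d7_WT_361 (3.32) and d7_WT_393 (3.3). Libraries d0_WT_41 (6.97) and d3_WT_381 (6.81) lie high at low leukocyte levels.

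Among themselves the 10 genes varied together from library to library, again after removal of group means over 29 libraries. The closest pair was Psmb8 with Psmb9 (r = 0.93, rho = 0.90), followed by Tap1 with Psmb8 (r = 0.88, rho = 0.88), and the loosest was H2-K1 with Nlrc5 (r = 0.19, rho = 0.19). Of 10560 other genes with a mean log2 CPM of at least 2, the 8 most like the mean of the 10 were Igtp (r = 0.93), Ifi47 (r = 0.92), Parp9 (r = 0.92), Ube2l6 (r = 0.91), H2-DMa (r = 0.91), Gm12250 (r = 0.91), Irgm1 (r = 0.905) and Ido1 (r = 0.90). Igtp and Irgm1 encode immunity-related GTPases, Ube2l6 an ISG15-conjugating enzyme, H2-DMa a class II peptide editor and Ido1 a tryptophan-degrading enzyme. Igtp itself ran from 26.4 to 158 CPM in KO on day 7 and from 9.38 to 46.9 CPM in WT.

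Within KO on day 7, 2 libraries set the ends of most ranges. Library d7_KO_366 was the lowest of the 7 for 8 of the 10 genes, and d7_KO_421 was the highest for 6. Library d7_KO_420 departed from both, with the highest H2-D1 (1177 CPM) and the lowest Psmb9 (23.6 CPM) and Psmb10 (125 CPM) of the group, beside the highest summed neutrophil markers (1289.5 CPM). Its Hk2 level (260.5 CPM) was the highest of the KO libraries of that day and lay inside the WT range, above d7_WT_431 (231 CPM). In WT on day 7, d7_WT_419 was the highest for 6 genes, and d7_WT_386 for the 3 inducible proteasome subunits, while it was also the highest for Psmb5, Psmb6 and Psmb7.

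Against untreated mice, day and library series cannot be told apart, and the test of the difference between genotypes called none of the 10 genes. From day 0 to day 7, 8 of 10 genes rose in KO, where 54.6% of the 16367 genes tested were called in either direction, and 4 rose and 1 fell in WT, where 56.9% of 17428 were. For 8 genes in KO every day 7 library lay above every day 0 library, as for 21.7% of all genes tested. In WT this held for Psmb10 alone, and for 20.6% of all genes tested. Psmb8 in KO went from a median of 15.9 to 80.1 CPM, a log2 change of 2.16 (SE 0.23, adjusted p = 3.74e-06), and Nlrc5 from 3.43 to 24.2 CPM, a change of 2.76 (SE 0.31, adjusted p = 6.13e-06). The WT genes that rose were H2-D1, B2m, Psmb9 and Psmb10, and 7 of 10 rose in WT without d0_WT_41. Tapbp was the 1 that fell in WT, by 0.40 (adjusted p = 0.0149), and it did not pass without d0_WT_41 (-0.26, adjusted p = 0.0772). From day 0 to day 3, B2m, Psmb8 and Psmb9 rose in KO, by 0.36, 0.97 and 0.83, and Tapbp fell, by 0.42 (adjusted p = 0.00745), where 46.3% of 16010 genes were called. Without d3_KO_351 the KO count was 7 of 10. In WT only Tapbp was called from day 0 to day 3, down by 0.53 (adjusted p = 0.00837), where 46% of 17152 genes were called, and without d0_WT_41 it was not.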

How the data were processed

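RNA-seq counts of 38 libraries were used, in 76 deposited lane files that were summed per library. Per the file headers, the authors counted read pairs per gene with featureCounts 1.6.2 with strand ignored, whereas the submitters' processing notes list featureCounts 1.5.2 with STAR, Trim Galore and GRCm38. The annotation release was not given in the sources used here. Sequences came from the RefSeq promoter table on GRCm38.p6.

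The deposited counts were tested with the quasi-likelihood test of edgeR 4.0.16 (R 4.3.3) after TMM scaling and filterByExpr, with Benjamini-Hochberg adjustment over all genes tested and a threshold of 0.05. Standard errors were the fold change divided by the square root of F. CPM were computed from the authors' counts with TMM factors over all 38 libraries, and CPM per kb with the union exon length. Ratios of subunits added 0.5 to each count. Correlations used a prior count of 2. The scripts were tested on simulated counts. Alternatives were DESeq2 1.42.0, its size factors, other filters, all 38 libraries in one fit, the leukocyte mean as covariate and leaving out each library. Total counts were 10.5 M to 60.6 M per library, so that low genes such as Nlrc5 and Ifng are the least precise.

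Groups came from the sample labels. The members and lists were chosen with earlier results of these data known. Genes named are the 10 members, Psmb5, Psmb6, Psmb7, Irf1 and Ifng, up to 2 called genes per list and direction with the smallest adjusted p, and the 8 genes most like the mean of the members. Other called genes of the lists are only counted, and 1 gene of the rule is not reported here. Igtp levels, and the libraries singled out within groups, were chosen after their values were seen.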

Additional observations from a re-analysis of the deposited data

Results flagged for a closer look

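In 13 of the 78 combinations of a gene or ratio and a group of 4 to 10 libraries, 1 library lay far from the rest by Dixon's test, where chance gives about 1 in 20 (3.9 of 78). Library d3_WT_381 accounted for 7 of them, each on the high side: H2-K1 at 759.8 CPM (next library 601.5), B2m at 499 CPM (287.2), Tapbp at 186.4 CPM (143.8), Psmb8 at 68.35 CPM (28), Psmb9 at 49.76 CPM (20.4), Psmb10 at 197.7 CPM (101.3) and the ratio of Psmb10 over Psmb7 at 1.71 (1.227). Its leukocyte mean (2.00 log2 CPM) lay inside the range of the other WT libraries of day 3. Its summed small intestine markers (1212 CPM, of which Fabp2 made up 1159 CPM) were the highest of all libraries. It had 26.7 M counts, the fewest genes detected of all libraries (19084) and the highest share of mitochondrial ribosomal RNA of the DSS libraries (3.95%). Psmb5, Psmb6 and Psmb7 were also highest of its group in this library, at 78.2, 162 and 111 CPM. Library d0_WT_41 accounted for 4, with Tap1 at 82.49 CPM (next library 29.84), Tap2 at 41.65 CPM (25.55), Psmb8 at 65.12 CPM (21.42) and Psmb9 at 31.58 CPM (13.03). Its Igtp (30.3 CPM) was also the highest of the untreated WT libraries, while its leukocyte mean (2.28) was within their range. Its summed T cell markers (16.2 CPM, group median 7.92 CPM) and macrophage markers (8.02 CPM, group median 6.62 CPM) were the highest of that group. The summed B cell markers of this library (0.638 CPM, group median 1.54 CPM) were the lowest of the group. Library d7_WT_386 had the highest Psmb10 of its group, 195.9 CPM against 143 CPM in the next. It had the lowest total count of the DSS libraries (25.2 M), with 19831 genes detected and 1.96% mitochondrial ribosomal RNA. Library d0_KO_53 had the lowest Nlrc5 of its group, 1.603 CPM (28 counts) against 3.107 CPM in the next. No cause of these values was tested.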

How the results depend on the processing

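KO against WT called 0 of the 10 genes on each day and over both DSS days under every alternative run, and the interactions of genotype with day also called 0. The count from day 3 to day 7 was 6 in WT and 9 in KO. It was 0 in each with the leukocyte mean as a covariate, and 3 to 8 in WT when 1 library was left out. With that covariate the log2 value of Nlrc5 in WT was -0.17, those of KO against WT were 0 for H2-K1 on day 0 and -0.02 for B2m, -0.03 for Psmb9 and 0.03 for Psmb10 on day 3, and the cause was not tested. Against day 0 the calls moved more. From day 0 to day 3 the WT count of 1 was 2 without a filter, with all 38 libraries or with the covariate, and 0 to 2 with 1 library left out, and the KO count of 4 was 7 without a filter, 1 with the covariate and 3 to 7 with 1 library left out. From day 0 to day 7 the covariate left 1 gene in WT (5 without it) and 0 in KO (8 without it). Its log2 values there were -0.51 for Tap1, -0.28 for Tap2 and -1.86 for Nlrc5 in WT, and -0.12 for H2-K1 and 0.08 for Tapbp in KO, with -0.03 for H2-D1 from day 0 to day 3 in KO. Without a filter the value was 0.04 for H2-D1 (WT, day 0 to 3), 0.06 for H2-K1 (WT, day 0 to 7) and 0.01 for Tapbp (KO, day 0 to 7), and the median of the 10 moved from 1.18 to 1.30 in the last comparison. The count of ratio tests that passed was 4, and 3 to 7 with 1 library left out.

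With 1 library left out, values that changed sign ran from -0.14 to 0.13 for H2-K1, -0.11 to 0.11 for H2-D1, -0.26 to 0.20 for B2m and -0.15 to 0.07 for Tapbp in KO against WT on day 0, and from 0 to 0.23 for B2m, -0.03 to 0.47 for Psmb9 and -0.11 to 0.19 for Psmb10 on day 3. In the interaction of day 7 and day 3 they ran from -0.03 to 0.44 for Psmb8, -0.07 to 0.25 for Psmb10 and -0.05 to 0.40 for Nlrc5. From day 0 to day 3 in WT they ran from -0.09 to 0.15 for H2-D1, 0 to 0.52 for B2m, -0.64 to 0.28 for Tap1, -0.27 to 0.06 for Tap2, -0.37 to 0.69 for Psmb8 and -0.21 to 0.68 for Psmb9, and from day 0 to day 7 in WT from -0.15 to 0.13 for H2-K1 and -0.05 to 1.5 for Nlrc5.

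Counts over all genes also depended on the tool. KO against WT called 5 genes on day 0 (175 by DESeq2, 52 without a filter, 0 to 37 with 1 library left out), 1 on day 3 (2 by DESeq2), 1 on day 7 (89 by DESeq2, 38 with all 38 libraries) and 2 over both days (566 by DESeq2, 159 with all 38 libraries, 1 to 555 with 1 library left out). The interaction of day 7 and day 0 called 1 gene (148 by DESeq2, 4 with all 38 libraries, 0 to 279 with 1 library left out). With the covariate, the 3002 genes called from day 3 to day 7 in WT became 86 and the 3008 in KO became 0. The 7409 called from day 0 to day 3 in KO became 3667, and from day 0 to day 7 the 9919 in WT became 4876 and the 8938 in KO became 432. No paired analysis was possible because the groups share no library numbers. Depth limits Nlrc5 and Ifng most, and differences in them under the spread of their counts were not detectable.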
